A study of Mus musculus with 15 samples.

Results

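The Hox genes examined were all genes on the array whose probe set carried a single symbol of the form Hox, a cluster letter (a, b, c or d) and a paralogue number. Antisense and clone transcripts of the clusters were kept apart. This gave 33 genes of the 18193 with a single-symbol probe set: 9 in cluster A, 9 in B, 7 in C and 8 in D. Hoxb8 and Hoxd4 were represented by probe sets shared with a neighbouring Hox gene, and further genes of the clusters were not analysed here. Of the 33 members, 23 were bright enough to test and 10 were dim. Bright enough meant above the array's 50th percentile on at least 3 of the 15 arrays. Hoxc13 lay just inside this limit, on 4 arrays, and Hoxc10 just outside it, on 2.

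Mouse embryonic stem (ES) cells were steered towards paraxial mesoderm, the tissue beside the neural tube that forms somites, and RNA from 5 groups of 3 biological replicates was hybridised to Affymetrix arrays after two-cycle labelling. The day 0 ES cells were unsorted E14 cells (strain 129P2) grown on mouse embryonic fibroblast feeders in serum with LIF and the 2i inhibitors CHIRON99021 and PD0325901, then passaged once without feeders. The differentiated cells had 2 days of BMP4 at 10 ng/ml in serum-free medium and then DMSO at 0.5% and the BMP inhibitor LDN193189 at 0.1 μM (some sample labels of the CDL and day 6 groups number it LDN193191 or LDN193193, and the protocol gives LDN193189), together with a Wnt activator, which was the R-spondin ligand Rspo3 at 10 ng/ml in the medium called RDL and the inhibitor CHIRON99021 at 1 μM in that called CDL. Day 4 cells were E14 cells sorted for a reporter of Msgn1 (Msgn1-repV+), a presomitic mesoderm gene, and day 6 cells were CK35 cells (strain 129Sv) sorted for a GFP reporter of Pax3, a gene of the somite and dermomyotome. Day 6 therefore differed from day 4 in cell line, strain and sorted reporter as well as in time, and the ES cells differed from all others in medium and in having no sort; these differences cannot be told apart from the stage. The labels call the replicates biological, and nothing else about their origin was used. The sorted genes followed the labels: at day 4 mean Msgn1 signal was 196 in RDL and 337 in CDL against 29.1 in ES cells, and at day 6 mean Pax3 signal was 303.5 in RDL and 522 in CDL against 58.9 in ES cells.

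Hox genes encode homeodomain transcription factors that give each level of the body axis its identity. In mammals they lie in 4 clusters, and within a cluster the gene order, numbered by paralogue group, follows the order of expression: low-numbered (3′) genes switch on first and anteriorly, and high-numbered (5′) genes later and posteriorly. In the gastrulating embryo the clusters open in the posterior streak and presomitic mesoderm under Wnt, FGF, Cdx and retinoic acid input, and are held silent in ES cells largely by Polycomb proteins. Hox proteins often bind DNA together with the TALE homeodomain proteins Pbx and Meis.

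The stretches of DNA at the start sites of Hoxb1 and Hoxd1 are shown because these genes had the largest changes with time among the members, and that of Hoxa7 because it holds a motif of the Cdx regulators. They are RefSeq sequences of build GRCm38.p6, 250 bases long, read 5′ to 3′ on the gene's own strand, and end at the start site that the promoter table uses. For Hoxb1 that site lies just inside the gene's RefSeq record, which begins at chr11:96365746. Capitals mark matches, on either strand, to TGATNNAT, a form of the joint Hox and Pbx site, or TTTATG, the Cdx core; the motifs share no letters in these windows.
Hoxb1, chr11:96365508-96365757, plus strand: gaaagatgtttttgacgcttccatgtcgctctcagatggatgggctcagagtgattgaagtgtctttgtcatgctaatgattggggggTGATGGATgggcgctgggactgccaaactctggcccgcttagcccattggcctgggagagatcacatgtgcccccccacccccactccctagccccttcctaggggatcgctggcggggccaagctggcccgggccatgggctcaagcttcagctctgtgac
Hoxd1, chr2:74762730-74762979, plus strand: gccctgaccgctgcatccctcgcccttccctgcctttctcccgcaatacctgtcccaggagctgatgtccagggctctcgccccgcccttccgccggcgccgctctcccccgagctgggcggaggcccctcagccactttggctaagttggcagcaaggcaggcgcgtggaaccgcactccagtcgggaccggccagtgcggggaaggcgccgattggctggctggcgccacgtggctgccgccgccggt
Hoxa7, chr6:52218574-52218823, minus strand: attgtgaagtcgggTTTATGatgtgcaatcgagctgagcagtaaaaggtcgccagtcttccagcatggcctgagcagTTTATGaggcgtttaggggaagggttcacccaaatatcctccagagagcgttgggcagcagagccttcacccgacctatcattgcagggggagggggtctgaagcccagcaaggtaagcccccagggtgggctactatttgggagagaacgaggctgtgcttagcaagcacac
The Hoxb1 window held TGATNNAT once, as TGATGGAT with its first base at position -162 from the start, and 7 CpG dinucleotides. The Hoxd1 window held neither motif and had 24 CpG. In the Hoxa7 window TTTATG stood at positions -236 and -173. The tables matched 19 member genes with 21 windows, of which 3 (14.3%) held TGATNNAT, those of Hoxa2, Hoxb1 and Hoxd11, and 3 held TTTATG, those of Hoxa7, Hoxd3 and Hoxd11. Among all 32851 windows of this length the shares were 7.68% and 10.8%. These matches describe letters only, and binding was not measured.

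Values are array signals on a linear scale, given for each replicate or as mean ± SD (n = 3). Differences are on the scale log2(signal + 12.6), ± standard error, and understate the change of dim genes. The adjusted p is Benjamini-Hochberg over all 12389 genes tested with limma, and "called" means adjusted p under 0.05. Signals of different probe sets share no scale, so genes are compared only by their differences. Summed signals of marker lists are compared between arrays only, and the brightest probe sets weigh most in them. RNA came from cell populations, in which fewer expressing cells and less RNA per cell cannot be told apart.

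Most arrays resembled their group mates, with mean correlations of 0.982 to 0.997 except for replicate 1 of RDL day 6, at 0.978. Replicate 1 of CDL day 4 stood apart in another way. Across 22 genes bright in ES cells and dim in the other differentiated arrays, it carried a median of 17.3% of the ES signal. The other 11 differentiated arrays gave -0.0848% to 0.116%, low values that follow from how the genes were chosen. Both replicate 1 arrays named here touched the Hox values. Replicate 1 of CDL day 4 was the lowest of its group for 17 of the 23 tested members (33.4% of all genes tested), and replicate 1 of RDL day 6 for 20 of 23 (43.6%).

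The ES cells had a low Hox baseline. Of the 33 members, 11 were above the array median on all 3 ES arrays, as were 60.9% of all genes. At day 4 the number was 22 in RDL and 21 in CDL, and at day 6 it was 20 in RDL and 21 in CDL, while the share of all genes stayed between 59.7% and 60.2%. Of the 23 members tested, 10 were above the median on no ES array, against 739 of all 12389 genes tested. Those genes passed the filter through differentiated arrays, so the counts against ES cells describe the tested members and do not show that Hox genes in general rose.

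**Figure D1:**
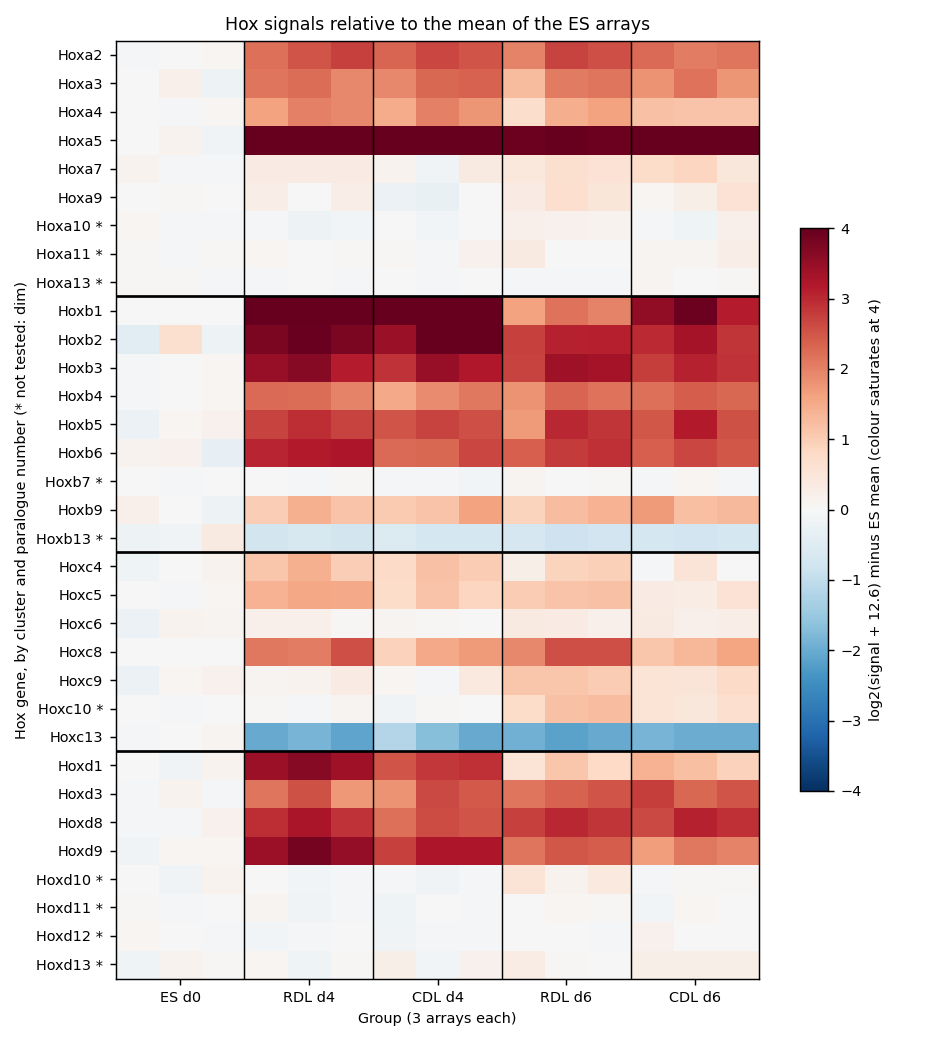
Heat map of the 33 Hox genes (vertical axis, by cluster and paralogue number) on the 15 arrays (horizontal axis, 3 per group). Colour gives log2(signal + 12.6) minus the mean of the ES arrays, saturating at 4 in either direction, and an asterisk marks the 10 dim genes. Red fills paralogue groups 1 to 5 at day 4, Hoxb1 and Hoxd1 pale at day 6, and the dim 5′ genes stay near white.

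At day 4 nearly all tested 3′ and central genes of the clusters were higher than in ES cells in the Msgn1-sorted cells of both media. In RDL 19 of the 23 tested members rose and 1 fell (57% of all genes tested were called: 27.6% higher and 29.4% lower), with a median difference of 2.17. In CDL 18 rose and 1 fell (56% of all genes: 26.6% higher and 29.4% lower), with a median of 2.18. The median over all genes tested was near 0 in every comparison, between -0.04 and 0.00. Both comparisons share the ES arrays. The members not called in either medium were Hoxa9, Hoxc6 and Hoxc9. Hoxa7 was called in RDL only, at 0.32 ± 0.13 (adjusted p = 0.046), which lay close to the threshold. That call was lost without ES replicate 2 or 3 or any 1 of the RDL day 4 arrays (adjusted p from 0.083 to 0.142), and whether its rise differed between media did not pass the test (adjusted p = 0.523).

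The tested paralogue group 1 genes, which open hindbrain and streak expression in the embryo, had among the largest rises. Hoxb1 read 6.84, 6.89 and 6.47 on the ES arrays, 1418, 1716 and 1300 in RDL at day 4 and 2140, 2125 and 1859 in CDL. Its groups did not overlap, and the differences from ES cells were 6.26 ± 0.18 in RDL and 6.73 ± 0.18 in CDL (adjusted p = 1.79e-13 and 7.61e-14). Hoxd1 read 12.7, 10.1 and 15.2 in ES cells, 259.8, 298.9 and 250.6 in RDL and 132, 167 and 180 in CDL. It was thus up in both media, by 3.48 ± 0.16 and 2.76 ± 0.16, and higher on every RDL array than on every CDL array.

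Paralogue groups 2 to 5, which pattern the hindbrain and the neck, were called higher in both media for all 11 members tested (Hoxa2 to Hoxa5, Hoxb2 to Hoxb5, Hoxc4, Hoxc5 and Hoxd3). Hoxa5, which specifies cervical and upper thoracic vertebrae, changed most: 16.7, 20.02 and 14.1 in ES cells against 829, 917 and 679 in RDL and 568, 704 and 662 in CDL, a difference of 4.79 ± 0.13 and 4.47 ± 0.13. Hoxb2, a hindbrain gene, rose by 3.83 ± 0.24 in RDL and 3.87 ± 0.24 in CDL, although its ES replicates were uneven at 24.1, 65.9 and 30.5. Its neighbour Hoxb3 rose by 3.43 ± 0.19 and 3.20 ± 0.19, from 33.7, 34.9 and 37.6 in ES cells to 524, 587.5 and 414.5 in RDL. The smallest rises of this stretch were in cluster C: 1.16 ± 0.20 and 0.99 ± 0.20 for Hoxc4, and 1.48 ± 0.11 and 0.91 ± 0.11 for Hoxc5.

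Groups 6 to 9, which pattern the thorax, were mixed. Hoxb6 read 20.4, 21.5 and 11.5 in ES cells, 238, 259 and 267 in RDL and 131, 136 and 179 in CDL, so it rose in both media. Hoxd9 went from 39.7, 47.8 and 47.8 to 606, 800.1 and 649 in RDL (3.59 ± 0.16) and to 374, 526 and 524 in CDL (3.07 ± 0.16), and its cluster neighbour Hoxd8 rose by 3.03 ± 0.15 and 2.43 ± 0.15. Within the same groups, Hoxc8 rose by 2.24 ± 0.21 and 1.38 ± 0.21 and Hoxb9 by 1.17 ± 0.18 and 1.27 ± 0.18, while Hoxc6 and Hoxc9 differed from ES cells by 0.06 to 0.20, none of it called. By cluster, all 7 tested B members and all 4 tested D members were called higher in both media. In cluster C 3 of 6 were called higher and 1 lower in each. Of all genes tested, 27.6% were higher in RDL and 26.6% in CDL. Hoxc4, Hoxc5, Hoxc6, Hoxc9 and Hoxc13 were above the median on all ES arrays. Hoxb1, Hoxb5, Hoxb6, Hoxd1, Hoxd3 and Hoxd8 passed the filter only through differentiated arrays. These counts thus depend on the filter and do not compare the clusters.

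Across the 23 tested members the day 4 difference from ES cells fell with paralogue number, with a Spearman correlation of -0.52 in RDL and -0.61 in CDL. These are descriptions across genes that share arrays and clusters and are not independent. The filter also selected genes in ways tied to the difference. Hoxc13, the tested gene with the highest paralogue number, passed on 4 arrays, with all ES arrays among them. Another 10 members were above the median on no ES array and passed through differentiated arrays. The 10 dim members, most of them with high paralogue numbers, were left out. The correlations thus describe the tested members only and do not show an order across the clusters. Hoxd9 ran against the fall with paralogue number, its differences of 3.59 and 3.07 exceeding those of all tested members of groups 6 to 8.

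**Figure D2:**
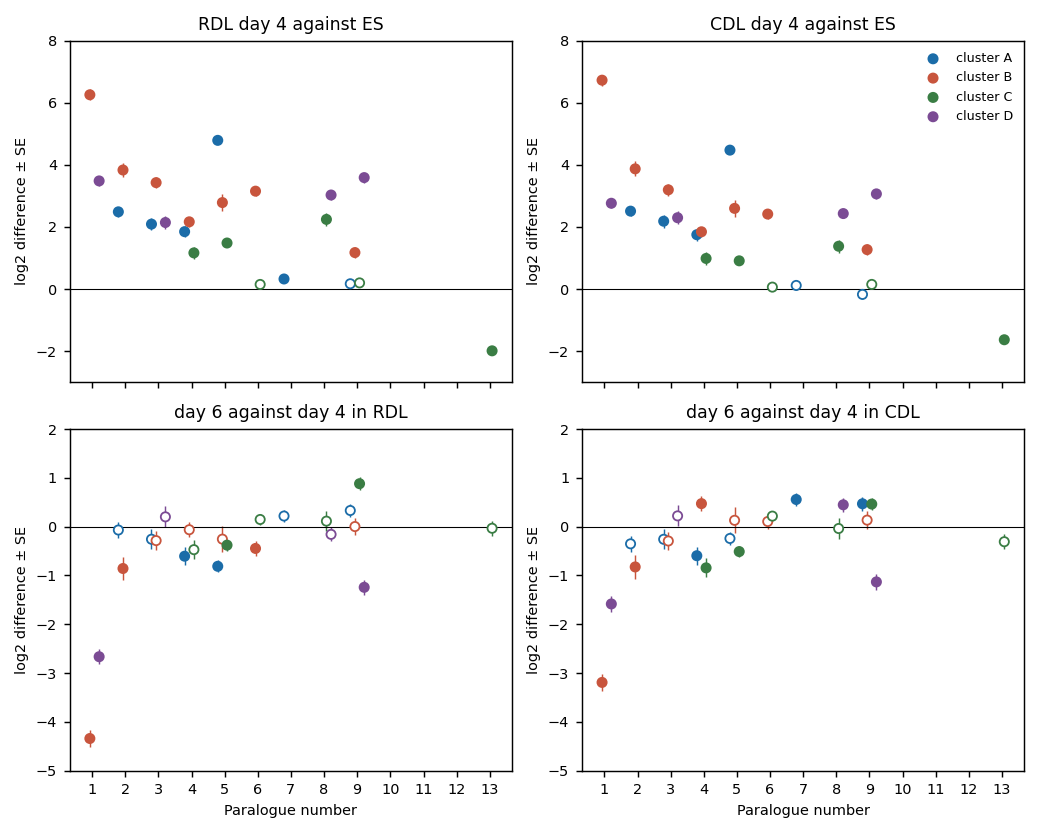
Log2 difference (vertical axis, ± standard error) against paralogue number (horizontal axis) for the 23 tested Hox genes, coloured by cluster; filled points are called and open points are not. The day 4 differences from ES cells run from 6.26 and 6.73 for Hoxb1 to below 0 for Hoxc13, and from day 4 to day 6 Hoxb1 and Hoxd1 fall most.

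Hoxc13 alone ran the other way among the tested members. This gene, known from hair, nail and tail, read 106.5, 112 and 123 in ES cells, 18.4, 22.5 and 16.9 in RDL and 43.1, 25.9 and 18.8 in CDL at day 4, and 16.1 to 22.2 on the day 6 arrays. The ES arrays lay above all others, and the differences from ES cells were -1.99 and -1.64 at day 4 and -2.02 and -1.94 at day 6, in RDL and CDL, each ± 0.15. The highest differentiated value, 43.1, was on the CDL array that carried ES signal; without that array and replicate 1 of RDL day 6 the CDL day 4 difference was -1.86. Hoxb13, a dim gene just outside the filter with 1 array above the median, had a like order, with 25.2, 26.7 and 43.5 in ES cells and 12.1 to 17.5 on all 12 other arrays.

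In the Pax3-sorted cells of day 6 most tested members lay above ES cells, and Hoxb1 and Hoxd1 lay furthest below their day 4 values. Against ES cells 22 of the 23 tested members were higher and 1 lower in RDL (61.5% of all genes were called: 28.3% higher and 33.2% lower), and 20 higher and 1 lower in CDL (60.9%: 27.8% higher and 33.2% lower), with medians of 1.92 and 1.93. Hoxa9 and Hoxc4 were the members not called in CDL. The rises of Hoxc6, 0.30 ± 0.10 in RDL and 0.28 ± 0.10 in CDL, were called with adjusted p = 0.0223 and 0.0302, and lost the call under 6 and 5 of 17 alternative settings. Without ES replicate 1 they were 0.17 and 0.16 (adjusted p = 0.15 and 0.194), and the RDL call was also lost without RDL day 6 replicate 1 or 2 and the CDL call without CDL day 6 replicate 1 or 3. Without the array that stood apart in RDL day 6, 21 members were higher.

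Markers of other cell types moved too at day 6. The summed signal of 12 fibroblast markers, a list that fits feeders as well as mesenchyme, was 585 to 649 on the ES arrays, 1665 to 1952 at day 4 and 7137 to 12444 at day 6, and that of 9 neural crest markers was 767 to 828, 406 to 526 and 928 to 2317. The neural crest genes did not move together: against ES cells Sox9, Snai2 and Ets1 were higher at day 6 in both media and Foxd3, Tfap2a, Ngfr and Erbb3 were lower, while Sox10, a defining gene of the lineage, was not called. Both cell types express Hox genes, and their part in the Hox values was not tested. The fibroblast sum was the lowest of all groups in the ES arrays, and what raised it at day 6 was not tested.

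Set against day 4 directly, 1 tested member was higher and 8 were lower at day 6 in RDL (30.8% of all genes were called: 13.8% higher and 17.1% lower), with a median of -0.26. In CDL 5 were higher and 7 lower (39.3%: 17.4% higher and 21.9% lower), with a median of -0.24. The RDL split was 2 higher and 5 lower without replicate 1 of RDL day 6, as Hoxa4, Hoxb6 and Hoxc5 lost their call. The CDL split was 3 higher and 7 lower without replicate 1 of CDL day 4, and 4 higher and 11 lower without both arrays that stood apart. The CDL count was 7 in place of 12 without replicate 3 of CDL day 6, where Hoxa4, Hoxa9, Hoxb2, Hoxb4 and Hoxd8 lost theirs.

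The steepest declines among the tested members were those of Hoxb1 and Hoxd1. Hoxb1 read 45.8, 74.98 and 63.3 in RDL at day 6 and 213, 278 and 159 in CDL, so it fell by 4.34 ± 0.18 and 3.19 ± 0.18 from day 4 (adjusted p = 2.31e-11 and 9.1e-10). It still lay above its ES level of 6.73 ± 0.228 on every array. Hoxd1 read 24.004, 41.7 and 31.4 in RDL and 54.0, 45.7 and 35.1 in CDL, and fell by 2.67 ± 0.16 and 1.58 ± 0.16. The ordering of both genes by mean signal thus placed the day 4 groups first, then CDL day 6, RDL day 6 and ES cells, with RDL day 4 above CDL day 4 for Hoxd1. For Hoxb1 the day 4 groups did not differ beyond the test (0.47 ± 0.18, adjusted p = 0.186), and for Hoxd1 the day 6 groups did not (0.36 ± 0.16, adjusted p = 0.211).

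Next to these, the middle of the clusters moved little. Hoxb2 fell in both media, by 0.86 ± 0.24 and 0.82 ± 0.24, as did Hoxa4 (0.60 ± 0.19 in each) and Hoxc5 (0.38 ± 0.11 and 0.51 ± 0.11). Some of these calls rested on single arrays. Without RDL day 6 replicate 1 the RDL differences were -0.33 for both Hoxa4 and Hoxc5 (limma adjusted p = 0.102 and 0.0561), and both calls were also lost without RDL day 4 replicate 2 or 3. In CDL the Hoxa4 call was lost without CDL day 4 replicate 2 (-0.46) or CDL day 6 replicate 3 (-0.595), and the Hoxb2 call without CDL day 4 replicate 3 (-0.69) or CDL day 6 replicate 3 (-0.73). Hoxa5 was called lower in RDL (433, 485 and 437 at day 6, a difference of -0.81 ± 0.13) but not in CDL (538, 586 and 504; -0.24 ± 0.13, adjusted p = 0.141). Hoxc4 was called lower in CDL, at -0.84 ± 0.20. In RDL it stood at -0.47 ± 0.20, not called without pairing, and called in limma with the replicate number as a block (adjusted p = 0.0195). The labels do not give such a pairing. Hoxb6 was called lower in RDL, at -0.45 ± 0.16, a call lost under 10 of 17 alternative settings. These included leaving out any 1 of the RDL day 4 arrays, or RDL day 6 replicate 1 or 2, where the limma adjusted p lay between 0.0547 and 0.19. Hoxa7 and Hoxd8 were called higher in CDL, at 0.56 ± 0.13 and 0.45 ± 0.15. The Hoxd8 call was lost without CDL day 4 replicate 1 (0.33, limma adjusted p = 0.109), CDL day 6 replicate 2 (0.35, adjusted p = 0.0849) or CDL day 6 replicate 3 (0.43, adjusted p = 0.0689). Hoxb4, which acts in the neck and in blood progenitors, was called higher in CDL, at 0.47 ± 0.15, and differed by -0.06 ± 0.15 in RDL. Its CDL call was lost without CDL day 4 replicate 1 (0.31, limma adjusted p = 0.12), CDL day 6 replicate 2 (0.415, adjusted p = 0.0638) or CDL day 6 replicate 3 (0.48, adjusted p = 0.0554). For Hoxa2, Hoxa3, Hoxb3, Hoxb5, Hoxb9, Hoxc6, Hoxc8, Hoxc13 and Hoxd3 no change from day 4 to day 6 was called in either medium, with differences between -0.35 and 0.22. Without both arrays that stood apart, Hoxa2, Hoxa3 and Hoxb3 were called lower in CDL, at -0.45, -0.395 and -0.44 (limma adjusted p = 0.0109, 0.033 and 0.0183), as was Hoxa5 at -0.33 (adjusted p = 0.0499). Hoxc13 was called lower in CDL without CDL day 4 replicate 3 (-0.49, adjusted p = 0.0104).

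Group 9 split by cluster. Hoxc9, a thoracic gene, read 62.3, 63.0 and 74.7 at day 4 and 135, 136 and 128 at day 6 in RDL, a rise of 0.88 ± 0.13, and 60.7, 54.8 and 77.8 against 88.7, 86.1 and 104.5 in CDL, a rise of 0.46 ± 0.13 whose call was lost without CDL day 4 replicate 2 (0.37, adjusted p = 0.0513). Hoxd9 fell over the same days, to 238.5, 308.5 and 299 in RDL and 172, 238 and 216 in CDL, by 1.24 ± 0.16 and 1.13 ± 0.16. In both genes the day 4 and day 6 arrays of a medium did not overlap. Hoxb9 was not called (0.00 ± 0.18 and 0.13 ± 0.18).

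Hoxa9 was measured by a pair of probe sets that disagreed. The brighter one, which represents the gene here, read 55.7 to 123 on all 15 arrays and was called higher only in RDL day 6 against ES cells (0.50 ± 0.14) and in CDL from day 4 to day 6 (0.47 ± 0.14), a call lost without CDL day 4 replicate 2 or CDL day 6 replicate 3. The dimmer one read 13.9, 15.9 and 13.1 in ES cells, 56.3, 65.1 and 55.4 in RDL and 22.3, 24.8 and 22.1 in CDL at day 4, and 124, 247 and 227 in RDL and 101, 115 and 146 in CDL at day 6. On that probe set the day 6 arrays were the highest, with all of them above all day 4 arrays. Over the 8 further bright probe sets of 7 member genes, Hoxa9 among them, 27 of 30 calls came out the same, 3 were not called and 0 were opposite. Only calls made by the representative probe set were counted. A change seen by a further probe set alone, as for Hoxa9, therefore does not show in these counts.

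Apart from Hoxc13, the members beyond group 9 were dim, as was Hoxb7. The 10 untested members were Hoxa10, Hoxa11, Hoxa13, Hoxb7, Hoxb13, Hoxc10, Hoxd10, Hoxd11, Hoxd12 and Hoxd13, and 8 of them stayed below the array median on all 15 arrays, with signals of 8.08 to 28.9. At such signals a low level and none cannot be told apart. Hoxc10, a gene of the lumbar region, rose most among the untested members at day 6. It read 9.60 to 13.5 on all ES and day 4 arrays, then 28.2, 42.2 and 44.4 in RDL and 23.1, 20.8 and 26.04 in CDL. When all 18193 genes were fitted with no filter, its difference from ES cells was 1.04 ± 0.10 in RDL (adjusted p = 1.12e-07) and 0.55 ± 0.10 in CDL (adjusted p = 0.00015), and CDL was lower than RDL by 0.49 ± 0.10 (adjusted p = 0.00513). In that fit Hoxd10, its D cluster counterpart, differed from ES cells by 0.36 ± 0.09 in RDL (adjusted p = 0.00273) and by 0.01 ± 0.09 in CDL (adjusted p = 0.926). The RDL signals of Hoxd10 were 28.4, 17.9 and 23.5, and CDL was lower by 0.345 (limma adjusted p = 0.0287). From day 4 to day 6 in RDL, Hoxc10 rose by 1.02, Hoxd10 by 0.40 and Hoxa10 by 0.295 (limma adjusted p = 6.98e-07, 0.00289 and 0.00962). In CDL Hoxc10 rose by 0.59 (adjusted p = 0.000217), while Hoxd10 (0.105) and Hoxa10 (0.03) were not called. Hoxc10 was singled out after its values were seen.

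**Figure D3:**
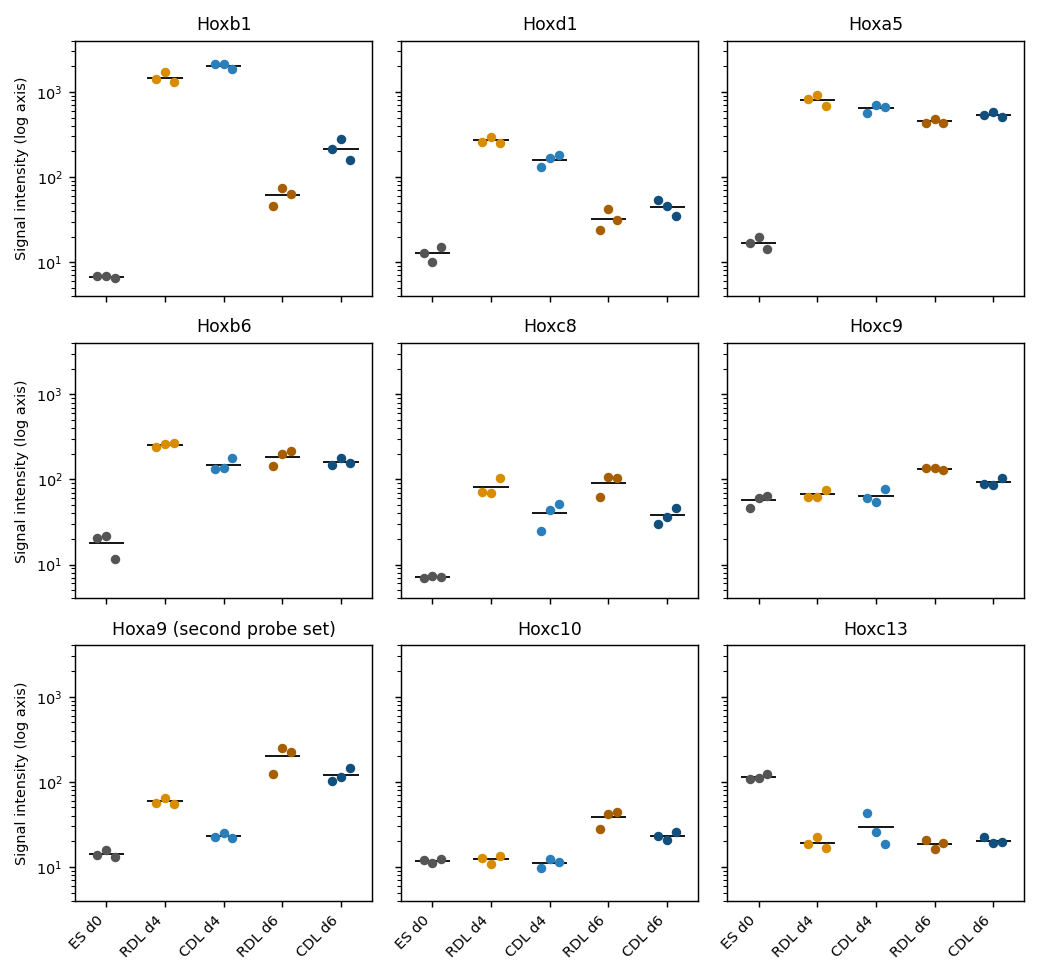
Signal of 8 Hox genes and of the second Hoxa9 probe set on each array (points; log vertical axis) by group (horizontal axis), with bars at the group means. Hoxb1 and Hoxd1 peak at day 4, Hoxa5 stays up, the second Hoxa9 probe set and Hoxc10 are highest at day 6, and Hoxc13 is highest in ES cells.

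The choice of Wnt activator, a chemical one in CDL or the R-spondin ligand in RDL, went with called differences in some tested Hox genes on each day. At day 4, 0 of the 23 tested members were higher in CDL and 5 were lower (4.42% of all genes were called: 2.9% higher and 1.52% lower), with a median difference of -0.19. The 5 were Hoxc8 (-0.86 ± 0.21, adjusted p = 0.0251), Hoxb6 (-0.74 ± 0.16, 0.0132), Hoxd1 (-0.72 ± 0.16, 0.0132), Hoxd8 (-0.60 ± 0.15, 0.0268) and Hoxc5 (-0.57 ± 0.11, 0.006). For each of them all 3 CDL arrays lay below all 3 RDL arrays, which describes genes already called and adds no support to the calls. Hoxc8, a thoracic gene, gave 72.2, 69.3 and 104.8 in RDL and 24.7, 43.2 and 52.1 in CDL. Hoxd8 gave 273, 338 and 257 in RDL against 155, 209.9 and 196 in CDL, and Hoxc5 gave 112, 127.5 and 125.5 against 66.5, 93.0 and 75.2.

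This count rested on single arrays. Without replicate 1 of CDL day 4, the array that carried ES signal and was lowest of its group for most Hox genes, 1 of the 5 was still called: Hoxc5, at -0.48 (adjusted p = 0.0311). The other 4 then differed by -0.48 to -0.66, with adjusted p from 0.0586 to 0.134. The count was 3, 2 and 3 without RDL day 4 replicates 1, 2 and 3, and 3 without CDL day 4 replicate 2. Without both arrays that stood apart it was 4, all but Hoxd8. Hoxc5 kept its call in every one of these fits. The summed signal of 12 somite markers was also lower in CDL at day 4, at 2452 to 3477 against 5249 to 5409 in RDL, and that of 14 pluripotency markers was 4291 to 17636 against 3390 to 3751. Their part in the Hox differences was not tested.

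At day 6, 1 tested member was higher in CDL and 3 were lower (7.57% of all genes: 3.65% higher and 3.92% lower), with a median of 0.01. Hoxb1 was the higher one, at 213, 278 and 159 in CDL against 45.8, 74.98 and 63.3 in RDL, a difference of 1.62 ± 0.18 (adjusted p = 1.86e-05). All 3 lower members were in cluster C. Hoxc8 read 30.1, 36.6 and 46.8 in CDL and 61.9, 106 and 104 in RDL (-1.02 ± 0.21, adjusted p = 0.00544). Hoxc5 read 47.9, 46.2 and 58.8 against 84.4, 93.3 and 94.8 (-0.71 ± 0.11, adjusted p = 0.000665). Hoxc9 differed by -0.47 ± 0.13 (adjusted p = 0.0336), and lost its call under 5 of 17 alternative settings, among them leaving out RDL day 6 replicate 2 or 3 or CDL day 6 replicate 1 or 2. Of the marker lists of other cell types, 5 of 10 tested fibroblast genes and 3 of 8 tested neural crest genes were also lower in CDL at day 6. So were 3 of 7 lateral plate genes, 2 of 8 endoderm genes and 2 of 5 endothelium and blood genes, the last list with 1 higher. Among 12 somite markers 5 were higher and 1 lower. The part of these cell types in the Hox differences was not tested.

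The remaining C cluster members did not pass this test at day 6: Hoxc4 stood at -0.55 ± 0.20 (adjusted p = 0.116), Hoxc6 at -0.02 ± 0.10 and Hoxc13 at 0.08 ± 0.15. Without replicate 1 of RDL day 6 the count of called members was 7 rather than 4, with Hoxa2, Hoxc4 and Hoxd9 added as lower in CDL. Hoxc4 was also called without CDL day 6 replicate 2 (-0.73, adjusted p = 0.0385). Without both arrays that stood apart the count was 8. The 95% intervals bound what the representative probe sets could have missed. For those of the cluster A genes they reached at most 0.64 in size at day 4 and 0.62 at day 6. The widest were those of Hoxb5, from -0.75 to 0.38 at day 4 and -0.37 to 0.77 at day 6. The intervals do not cover the second Hoxa9 probe set, whose mean at day 4 was 59.0 in RDL and 23.0 in CDL. At day 6 its means were 199.5 and 120.7.

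**Figure D4:**
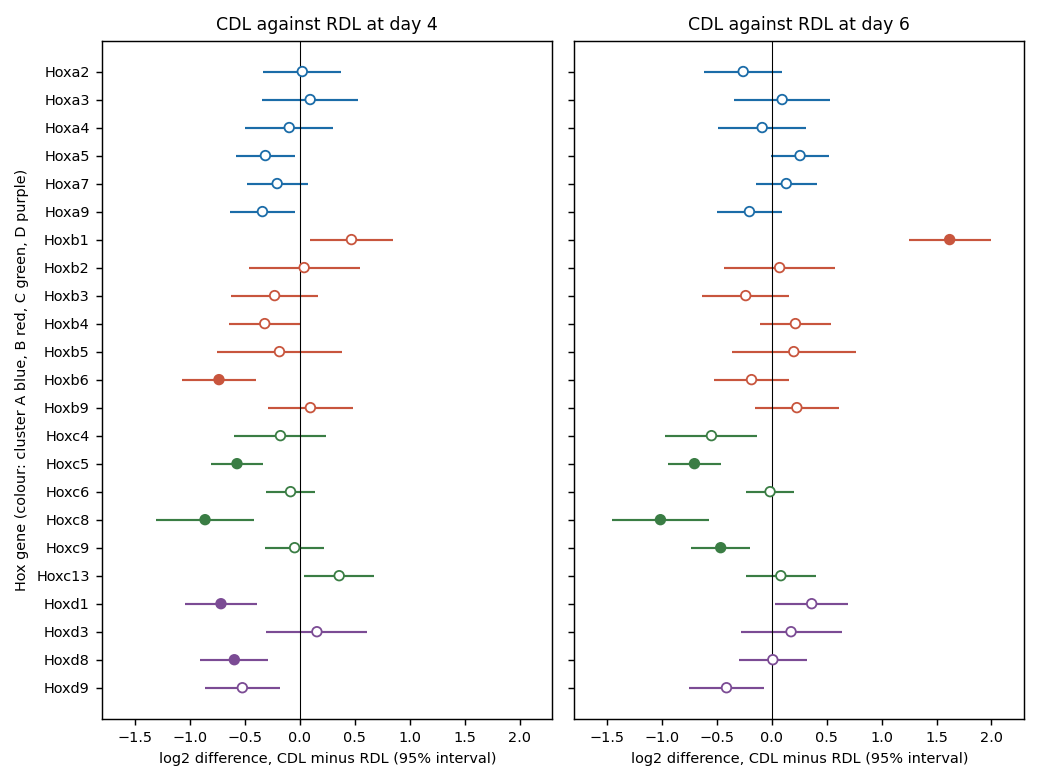
Log2 difference of CDL minus RDL (horizontal axis, 95% interval) for each tested Hox gene (vertical axis) at day 4 and day 6, coloured by cluster; filled points are called. The 5 called genes at day 4 lie left of 0, and at day 6 Hoxb1 lies far right at 1.62 while Hoxc5, Hoxc8 and Hoxc9 lie left.

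The effect of medium changed between days for Hoxb1 and Hoxd1. The interaction, the CDL minus RDL difference at day 6 less that at day 4, was called for 2 of 23 members (5.4% of all genes: 2.31% higher and 3.09% lower), with a median of 0.07. It was 1.15 ± 0.25 for Hoxb1 (adjusted p = 0.0111) and 1.08 ± 0.22 for Hoxd1 (adjusted p = 0.00754). For Hoxb1 CDL was above RDL by 0.47 at day 4 and by 1.62 at day 6, and for Hoxd1 the difference went from -0.72 to 0.36. Put in terms of time, both genes fell less in CDL than in RDL. Without both arrays that stood apart the interactions were 1.02 and 0.82 (adjusted p = 0.0129 and 0.015).

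The regulators known to act on the clusters were read from lists of genes chosen with earlier results of these data in view. Of the Cdx and ParaHox genes, 3 of the 4 tested were higher at day 4 in each medium and the same number were lower at day 6 than at day 4, where the shares of all genes were 27.6% (RDL) and 26.6% (CDL) higher and 17.1% and 21.9% lower. These were the caudal genes Cdx1, Cdx2 and Cdx4, which drive central and posterior Hox genes. Cdx1 read 126.5, 108 and 135 in ES cells, 349, 377 and 288 in RDL and 402, 512 and 410 in CDL at day 4, and 13.9 to 26.9 at day 6, below its ES level. Cdx2 rose by 2.04 and 2.58 at day 4 and fell by 2.21 and 2.61 by day 6. Cdx4 was higher in CDL than RDL at day 4, at 43.1, 38.8 and 34.0 against 17.5, 15.6 and 17.7 (0.79), all dim values.

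Signals of the elongating axis, FGF and Wnt ligands and their targets, were called higher for 10 of 12 tested genes in RDL and 11 in CDL at day 4. In each medium 1 was lower, the ES gene Fgf4. The shares of all genes were 27.6% higher and 29.4% lower in RDL, and 26.6% and 29.4% in CDL. From day 4 to day 6 all 12 were lower in both media, against 17.1% and 21.9% of all genes. Fgf8 went from 695, 762 and 839 in RDL and 760, 939 and 976 in CDL at day 4 to 24.5 to 37.0 at day 6, against 14.9 to 18.3 in ES cells. Wnt5a fell less, by 1.51 and 2.25, and Wnt3a, a Wnt ligand of the tail bud, was dim and higher in CDL than RDL at day 4 by 0.65. Hoxb1 and Hoxd1 fell over the same days, while every other tested Hox gene except Hoxd9 moved by at most 0.88 in either medium.

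Genes of the retinoic acid pathway, a direct inducer of group 1 genes, differed between media in both directions at day 6. Aldh1a2, the synthesising enzyme of the embryonic trunk, read 214, 338 and 299.8 in RDL and 1120, 1219 and 1022 in CDL, a difference of 1.96, and had risen in both media at day 4 (5.28 and 4.83). Cyp26a1, which degrades retinoic acid, ran opposite, at 548, 742 and 800.4 in RDL and 185.5, 208 and 208 in CDL (-1.72). The receptor Rarb was lower in CDL at day 4 by 1.22. Of the 13 tested genes of the pathway, 4 were higher and 2 lower in CDL at day 6 (3.65% and 3.92% of all genes), and 0 higher and 3 lower at day 4 (2.9% and 1.52%).

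Most TALE partners were higher at day 4, as most tested Hox genes were: 6 of 7 tested were higher and 1, Pknox1, was lower in both media, where 27.6% of all genes were higher in RDL and 26.6% in CDL. Meis1 read 11.0, 7.93 and 9.44 in ES cells, 289, 294 and 290.4 in RDL and 61.8, 92.9 and 114.8 in CDL, and reached 654 to 838 in RDL and 380 to 452 in CDL at day 6. It was lower in CDL by 1.60 at day 4 and by 0.88 at day 6. Meis2 rose by 2.501 and 2.17 at day 4, and Pbx3 by 2.47 and 2.42. At day 6, 4 of 7 partners were lower in CDL, Meis1, Meis2, Pbx3 and Pknox1, and 0 were higher (3.92% and 3.65% of all genes).

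Chromatin regulators of the clusters moved in both directions. Of 24 tested, 7 were higher and 10 lower in RDL at day 4, and 6 and 11 in CDL, where the shares of all genes were 27.6% higher and 29.4% lower in RDL and 26.6% and 29.4% in CDL. The higher counts were thus near the background. Cbx7, the Polycomb chromodomain protein typical of ES cells, fell from 421, 392 and 466.5 to no more than 54.2 in RDL, a difference of -2.83. In the same comparison the Polycomb members Phc2 and Cbx2 were higher by 2.36 and 1.79, and Mtf2 differed by -1.59. Between media 1 was called at day 4, Bmi1, and 0 at day 6, against 4.42% and 7.57% of all genes. Of the homeobox genes that neighbour or resemble the clusters, 3 of 8 tested were higher and 1 lower at day 4 in each medium. Evx1, which sits beyond Hoxa13 at the 5′ end of cluster A, was higher at day 4 by 2.66 and 3.49 and was not called against ES cells at day 6, while Hoxa13 stayed dim throughout. Of 6 tested regulators by enhancer binding, 5 were higher and 1, Pou5f1, lower in RDL at day 4, with Egr2, a hindbrain regulator of group 2 genes, up by 1.89.

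**Figure D5:**
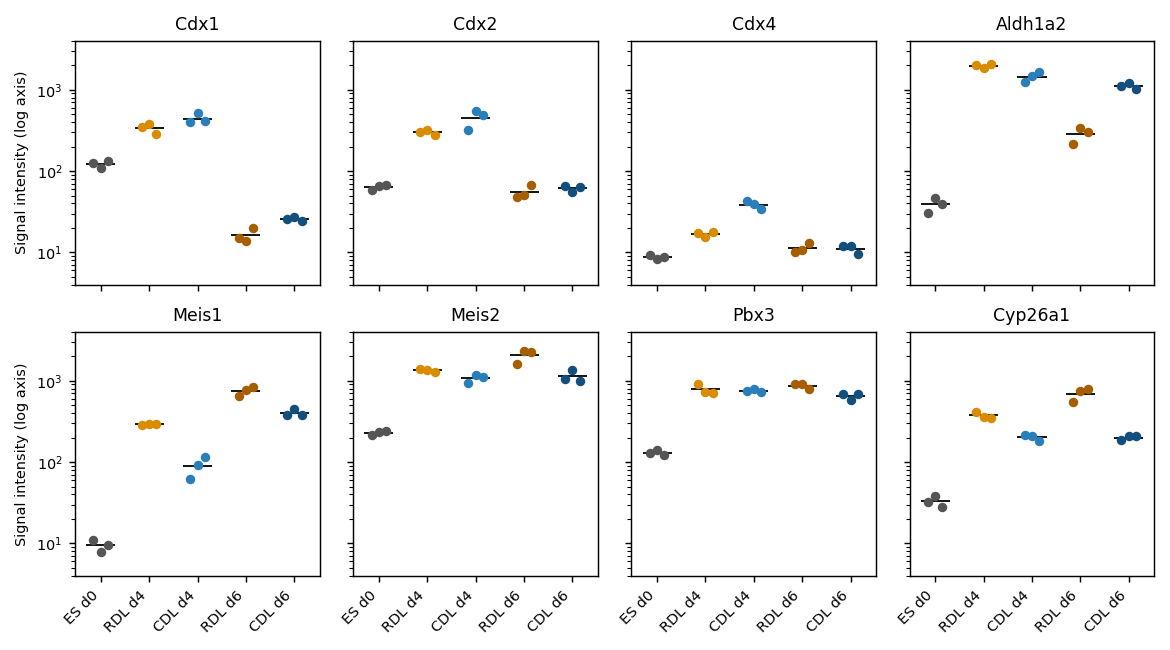
Signal of 8 regulators and partners of Hox genes on each array (points; log vertical axis) by group (horizontal axis), with bars at the group means. Cdx1, Cdx2 and Cdx4 peak at day 4, Meis1 is higher in RDL than CDL on both days, and at day 6 Aldh1a2 is higher and Cyp26a1 lower in CDL.

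Probe sets shared by neighbouring genes gave values for the pairs only. The one for Hoxb7 and Hoxb8 together rose at day 4 by 2.10 ± 0.18 in each medium, while the Hoxb7 probe set stayed at 13.5 to 17.7 on all arrays. A pair for Hoxd3 and Hoxd4 rose by 1.70 ± 0.23 and 1.55 ± 0.17 in RDL and by 1.40 ± 0.23 and 1.29 ± 0.17 in CDL. None of the 3 was called between media at either day.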

How the data were processed

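Signal intensities of 15 arrays, 1 value per probe set on a linear scale, were taken as deposited; per the submitters' processing notes the authors made these intensity values with MAS5, of unstated version. MAS5 scales each array as a whole, and no detection calls or genome build of the annotation were used here. Of 45101 probe sets, 64 controls were left out, 34945 carried 1 symbol, 932 several and 9160 none. For each gene the brightest probe set of 1 symbol (by mean log2 value over all 15 arrays) was used, and 12389 of 18193 genes passed the filter (above the array's 50th percentile on at least 3 arrays). The constant 12.6, the median over arrays of the 25th percentile, was added before log2. Signals of low probe sets are mostly background, and 3 arrays a group limit the precision.

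Group means over all 15 arrays were fitted with limma 3.58.1 in R 4.3.3 (lmFit, eBayes with an intensity trend), for 9 comparisons, and p-values were adjusted by Benjamini-Hochberg across those 12389 genes. The code was tested on simulated data. Python 3.11.15 with matplotlib 3.10.9 drew the figures. Alternatives varied the constant, filter, normalization, probe set rule, spread model, samples in the fit, replicate block and each replicate, plus, added after the data were seen, a fit without both arrays that stood apart. The members, gene lists and alternatives were chosen with earlier results of these data known. Every member was accounted for by name or count; values were given first for the called members with the largest differences in each comparison, and for up to 4 genes of each other list. The bounds of the paralogue groups were chosen after the values were seen and carry no test. Start-site order and names came from RefSeq tables of GRCm38.p6, in which motifs were counted over all windows of 250 bases. The groups share replicate numbers, but the labels do not say that a number marks a shared culture or day, so the comparisons were fitted without pairing. The deviations of same-numbered arrays from their group means correlated at 0.285, 0.259 and 0.219 between RDL day 4 and RDL day 6. These groups were different cell lines, so a number cannot mark a shared culture of 1 line. Blocked calls that differ are given beside that comparison as an alternative, chosen from the data alone. The correlations were 0.104, 0.248 and 0.099 between the media at day 4, and 0.608, 0.587 and -0.242 at day 6. Between CDL day 4 and CDL day 6 they were 0.075, 0.141 and 0.139. These were not all above 0.1, a cutoff of convenience, and blocked calls for the media are given only in the closing section. Between differentiated groups the same-numbered array was nonetheless the best match, except for replicate 3 of RDL day 6 and CDL day 6. What the replicate numbers share was not tested.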

Additional observations from a re-analysis of the deposited data

Results flagged for a closer look

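Hoxb1 and Hoxd1 responded to the medium differently on the 2 days, by a test of the interaction itself: 1.15 for Hoxb1 and 1.08 for Hoxd1 on the log2 scale. Cell line, strain and sort reporter changed with the day and cannot be told apart from it.

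The transcript annotated as Hoxb5os, antisense to Hoxb5 and not counted among the members, was far above its ES level. In ES cells its mean signal was 29.7 ± 5.28 (SD, n = 3). At day 4 it was 2609 ± 328.5 in RDL against 1471 ± 228 in CDL, at day 6 it was 1782 ± 232 in RDL against 3029 ± 193 in CDL, and its difference from ES cells in RDL at day 4 was 5.95. The order of the media turned between days: CDL was below RDL by 0.82 at day 4 (adjusted p = 0.00147, limma) and above it by 0.77 at day 6 (adjusted p = 0.00152), an interaction of 1.59 (adjusted p = 7.74e-05), with no overlap of the arrays on either day. Hoxb5 itself had no called difference between media. Hoxd3os1, antisense to Hoxd3, was higher in RDL at day 4 than in ES cells by 3.001, and lower in CDL than RDL by 1.04 at day 4 and by 0.96 at day 6 (adjusted p = 0.0439 and 0.0477). Which strand gave the signal was not tested. Hoxa11os stayed dim, at group means of 7.90 to 9.005.

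The second Hoxa9 probe set, which does not represent the gene in the tests, was higher in RDL at day 6 than in ES cells by 2.93, where the representative probe set gave 0.50. Which of the 2 reads Hoxa9 transcripts was not tested.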

How the results depend on the processing

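Of 115 called gene results, each recomputed under 17 or 23 alternatives, 1893 of 1967 values kept direction and call, 74 lost the call and 0 reversed. The counts of called Hox genes against ES cells stayed within 19 to 26. Leaving out 1 replicate gave 19 to 20 (RDL day 4), 19 (CDL day 4), 22 to 23 (RDL day 6) and 20 to 21 (CDL day 6) against ES cells, 1 to 6 for the media at day 4, 3 to 7 at day 6, 6 to 10 for day 6 against day 4 in RDL, 7 to 12 in CDL, and 2 to 3 for the interaction. For the media at day 4 the count was 5, and 1 without CDL day 4 replicate 1, 3, 2 and 3 without RDL day 4 replicates 1, 2 and 3, and 3 without CDL day 4 replicate 2; at day 6 it was 4, and 7 without RDL day 6 replicate 1. Without both arrays that stood apart, the count of media differences at day 6 was 8 and that of day 6 against day 4 in CDL was 15. With the replicate number as a block the interaction count was 4 in place of 2, adding Hoxa5 (0.57, adjusted p = 0.0251) and Hoxd8 (0.61, adjusted p = 0.0412). For the media the block gave 6 calls at each day in place of 5 and 4, adding Hoxd9 at day 4 (-0.525, adjusted p = 0.00478) and Hoxc4 (-0.55, adjusted p = 0.0251) and Hoxd9 (-0.41, adjusted p = 0.0146) at day 6, and for day 6 against day 4 in RDL it gave 10 in place of 9, adding Hoxc4 (-0.47, adjusted p = 0.0195). Under the block Hoxa7 lost its call in RDL day 4 against ES cells (adjusted p = 0.0573), and it changed no other Hox call. The causes of these changes were not tested. Dim signal limits paralogue groups 10 to 13, of which 1 member, Hoxc13, could be tested.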
